A study of Macaca mulatta with 13 samples.

Results

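Small leucine-rich proteoglycans are secreted proteins whose curved core, built from leucine-rich repeats, binds collagen fibrils and sets their spacing and diameter. Most carry chondroitin, dermatan or keratan sulfate chains, and several also bind growth factors of the TGF-beta family. In skeletal muscle they are made mainly by fibroblasts and related mesenchymal cells of the endomysium and perimysium, and fibromodulin is best known from tendon. Of 7 genes of this family sought, DCN, BGN, ASPN, LUM, FMOD, OGN and PRELP, 6 had probe sets named for them alone in the platform annotation. They had 14 probe sets among the 52766 that are not array controls. DCN had 5, LUM 3, BGN and OGN 2 each, and ASPN and FMOD 1 each. No probe set carried the name PRELP, which is not analysed here. The genes were chosen by symbol, with the diet comparison of these same arrays already known. Their diet differences are therefore given as a description.

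The arrays measured RNA of the vastus lateralis, a thigh muscle, of 13 male rhesus monkeys (Macaca mulatta). The 5 control animals were aged 27 to 30 years and ate the control diet. The 8 animals on calorie restriction (CR) were aged 27 to 32 years. A restriction of 18.5 years is stated for the animals in wording that names both groups, and it is read here as that of the CR group. Ages are given per group, and the size of the restriction and the biopsy site within the muscle are not given in the sources used here. Each animal gave 1 array, and the number of arrays limits the precision.

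The signal is the authors' MAS5 value per probe set on a linear scale, scaled so that the 2% trimmed mean of each array was 500.04 or 500.05. Levels of different probe sets cannot be set against each other. The fibre genes CKM, MYH2 and TNNT3 had signals of 48816 or more in each animal, and the tissue label is skeletal muscle. Control replicate 4 stood apart from the other arrays. Its median correlation with them over the 26383 brighter probe sets was 0.880, against 0.905 to 0.922 for the other arrays. It also had the highest summed signal of the fibroblast, tendon and endothelial marker lists and the lowest of the fibre list. Its 3' to 5' log2 ratio of the actin control, a sign of RNA quality, was 2.41, the highest of the 13, against 1.06 to 2.08 elsewhere. The same ratio of the GAPDH control did not stand out. It was 0.728 in control replicate 4, inside the 0.305 to 0.906 of the other arrays. Results that rest on control replicate 4 are given with and without it. In whole muscle, fewer cells of a type and less RNA per cell cannot be told apart.

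Decorin (DCN) and biglycan (BGN) are close relatives that carry chondroitin or dermatan sulfate chains and bind collagen and TGF-beta. The brightest DCN probe set (MmugDNA.32965.1.S1_at) had signals of 36355, 31616.5, 37259, 39292 and 19908 in control replicates 1 to 5. In CR its lowest, median and highest signals were 22582, 33139 and 53469. Control replicate 5 was the lowest of all animals and CR replicate 3 the highest, and the groups overlapped.

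The brightest BGN probe set (MmugDNA.19803.1.S1_s_at) had signals of 1292, 1202, 936, 1848 and 835 in the 5 controls. In CR the lowest, median and highest signals were 633, 896 and 1212. Control replicate 4 was highest and CR replicate 8 lowest, and 7 of 8 CR animals lay below the control mean. The suffix of this probe set is the one Affymetrix gives to probes shared by several transcripts, so transcripts other than BGN could add to it.

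Asporin (ASPN) is the third relative of this class and lacks the usual site for a sulfated chain. Its signals were 3491, 4844, 8104, 17521 and 1058 in the controls, and 1335, 3352 and 8182 as the lowest, median and highest in CR. The highest and lowest animals of the study were both controls, replicates 4 and 5, so that the CR animals lay inside the control range.

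Lumican (LUM) and fibromodulin (FMOD) form the second class, with keratan sulfate chains, and compete for sites on collagen I. The brightest LUM probe set (MmugDNA.40392.1.S1_at) had signals of 7873, 11128, 6129, 26430.2 and 4099 in the controls, and 2781, 10862 and 16702 as the lowest, median and highest in CR. Control replicate 4 was again highest, and CR replicate 8 was lowest.

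FMOD had the widest spread of these genes at the brightest probe set of each. Its probe set (MmuSTS.3729.1.S1_at) had signals of 3364, 8745.5, 5527, 15691 and 728 in the controls. The lowest, median and highest CR signals were 349.9, 2471 and 7523. Control replicate 5, CR replicate 4 and CR replicate 6 were far below the others. These 3 animals had signals of 728, 349.9 and 433. The other 10 animals lay between 1902 and 15691.

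Osteoglycin (OGN), also called mimecan, belongs to the third class. Its brightest probe set (MmuSTS.3312.1.S1_at) had signals of 2206, 1012, 1215, 6602 and 1081 in the controls, and 608, 1291 and 2144 as the lowest, median and highest in CR. Control replicate 4 was 5.05-fold above the mean of the other controls on the log2 scale, while the remaining controls overlapped with CR.

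**Figure D1:**
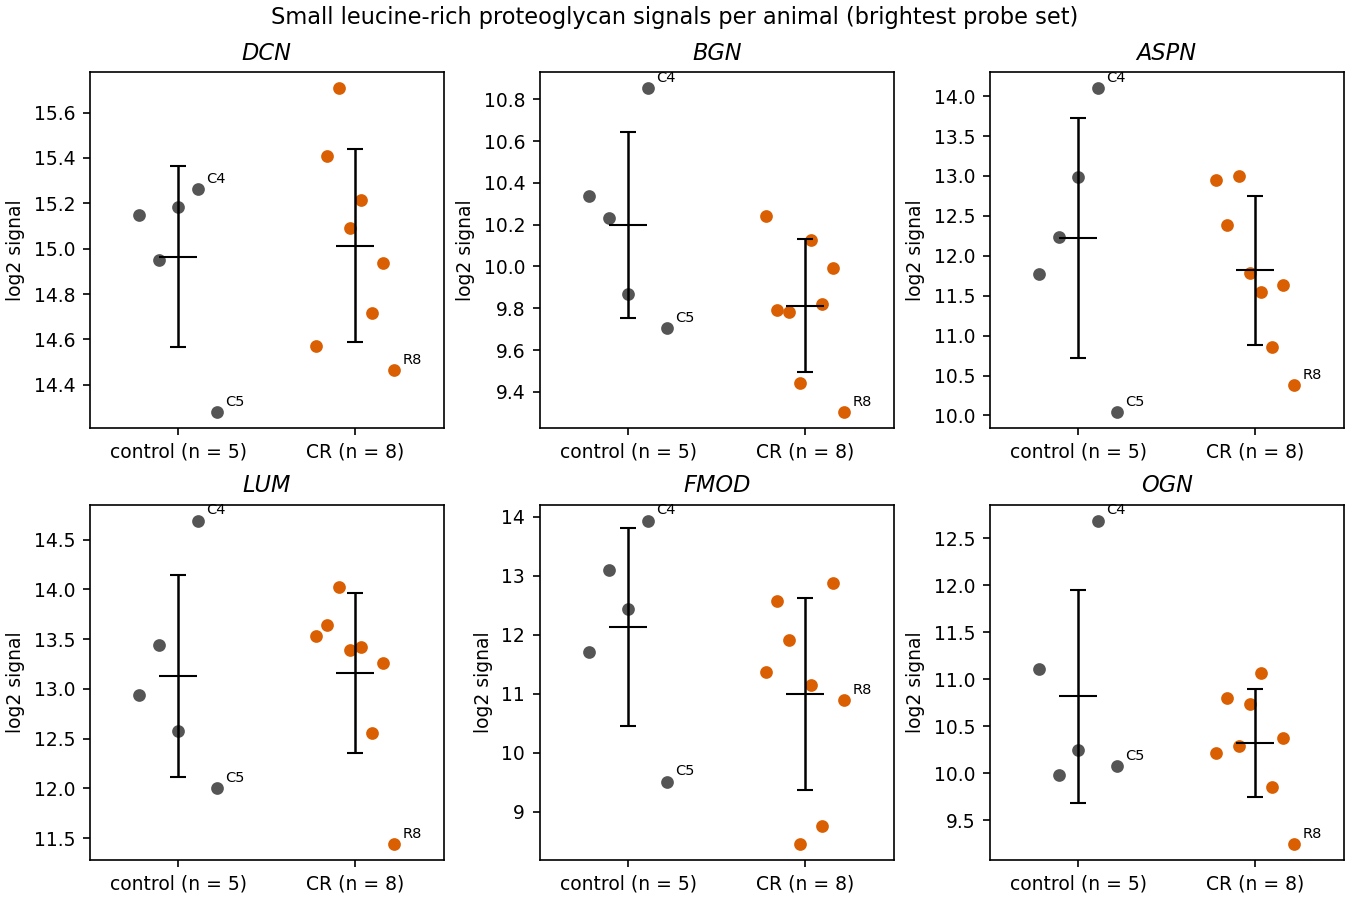
Log2 signal of the brightest probe set of each gene, 1 point per animal, for 5 control (grey) and 8 CR (orange) animals, with mean and SD as bars; each panel has its own axis, which does not start at 0. C4 and C5 are control replicates 4 and 5 and R8 is CR replicate 8; control replicate 4 is the highest animal for 5 of the 6 genes, and the groups overlap in each panel.

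The brightest probe sets of the family differed widely in variability. The residual SD between animals of 1 diet, on the log2 scale, was 1.65 for FMOD, and 0.326% of the 26383 tested probe sets had one as large. It was 1.17 for ASPN, reached by 2.84%, and 0.89 for LUM, reached by 9.86%. OGN had 0.83, reached by 12.6%. At its further probe sets LUM had 0.80 and 1.61, and OGN had 0.63. The LUM value of 1.61, reached by 0.368%, included a signal of 12.2 in CR replicate 8. DCN at 0.42 and BGN at 0.37 at their brightest probe sets were below the median of all tested probe sets, 0.45. The 3 DCN probe sets that followed the brightest had 0.58, 0.50 and 0.56, and the second of BGN 0.56, all above that median. The fifth and dimmest DCN probe set had 0.41, below it. Beside all tested probe sets, the low spread of DCN and BGN thus held for some of their probe sets and not for others.

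The order was the same among probe sets of like brightness. Among the tenth of probe sets of like mean signal, the share with an SD as large was 0.114% for FMOD, 1.10% for ASPN, 2.69% for LUM, 3.56% for OGN, 32.4% for DCN and 43.3% for BGN. The brightest DCN and BGN probe sets were thus above, not below, the median spread of probe sets of like brightness. Across the 13 animals the highest signal was 44.8-fold the lowest for FMOD, 16.6-fold for ASPN, 10.9-fold for OGN and 9.51-fold for LUM. For BGN and DCN the same ratio was 2.92 and 2.69. These ratios are those of the brightest probe sets, and the dimmest LUM probe set had 60.3.

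Control replicate 4 carried part of the spread of some genes. Without it the residual SD of OGN was 0.56, that of LUM 0.75 and that of ASPN 1.04. The FMOD value was 1.61 without it, still reached by only 0.345% of tested probe sets. The CR animals alone gave a log2 SD of 1.63 for FMOD (n = 8), against 1.68 in the controls (n = 5).

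**Figure D2:**
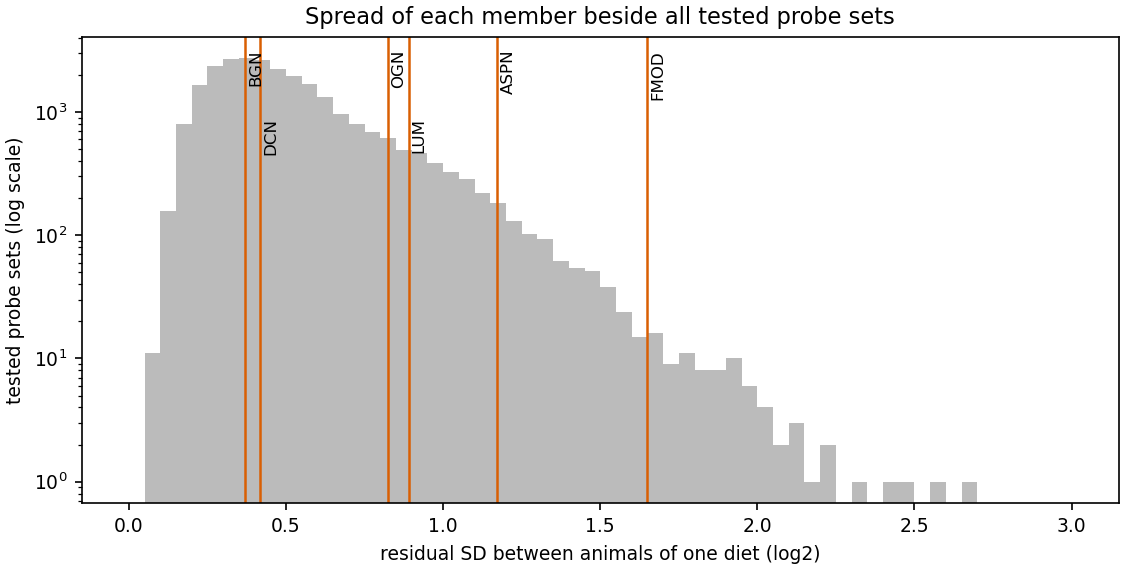
Histogram of the residual SD (log2) between animals of 1 diet for all 26383 tested probe sets, with counts on a log axis; orange lines mark the brightest probe set of each gene. BGN (0.37) and DCN (0.42) lie in the bulk and FMOD (1.65) in the far tail.

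Probe sets of the same gene did not always report the same pattern. Of 15 pairs of probe sets of 1 gene, 10 had a correlation over the 13 animals, diet means removed, with an adjusted permutation p under 0.05. For DCN, 4 of the 5 probe sets followed each other, with r from 0.863 to 0.972. The fifth and dimmest (MmugDNA.34727.1.S1_at) had r of only 0.0555 to 0.244 with them. The LUM probe sets gave r from 0.706 to 0.970, the 2 of OGN 0.818 and the 2 of BGN 0.301. Without 2 animals these values changed order: r was 0.216 for the dimmer 2 LUM probe sets and 0.497 for OGN, but 0.536 for BGN. The fifth DCN probe set is thus not interchangeable with the brighter ones.

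The diet comparison gave no call for the family. In limma's test across all probe sets with Benjamini-Hochberg adjustment, 0 of 14 probe sets passed in either direction, where 0% of all tested probe sets did. At an unadjusted p under 0.05 the count was 0 of 14, beside 2.43% of all tested probe sets, of which 1.18% were lower and 1.25% higher in CR. No probe set separated the groups without overlap, beside 0.072% of all. By sign, 9 of 14 probe sets had a lower mean in CR, with a median log2 difference of -0.093. For all tested probe sets 51.9% were lower and the median was -0.012.

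FMOD had the largest difference in means of the family, -1.14 ± 0.78 (SE, log2), or 2.20-fold higher in controls, with 6 of 8 CR animals below the control mean. Its 95% interval, -2.78 to 0.51, holds both no difference and a large one. Leaving out control replicate 4 gave -0.69, and leaving out control replicate 5 gave -1.80. The adjusted p of limma's test was 0.999, as for the other members. The difference stayed below 0 with each animal left out in turn. Both BGN probe sets were lower in CR, by -0.39 ± 0.21 and -0.45 ± 0.30, and remained below 0 with each animal left out in turn.

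For the brightest OGN probe set the difference was -0.50 ± 0.40, and -0.031 without control replicate 4. The second OGN probe set differed by -0.14 ± 0.32, and by 0.22 without control replicate 4. ASPN differed by -0.41 ± 0.56, and by 0.058 without that animal. The brightest probe sets of DCN and LUM differed by 0.048 ± 0.22 and 0.027 ± 0.43, and LUM by 0.42 without control replicate 4. With the 3' to 5' ratios of the GAPDH and actin controls as covariates, the difference was -0.13 for ASPN, -0.99 for FMOD, 0.20 for DCN, 0.18 for LUM and -0.67 for the second BGN probe set. The 95% interval for DCN, -0.42 to 0.52, was the narrowest after that of BGN, -0.83 to 0.054, among the 6 brightest probe sets.

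**Figure D3:**
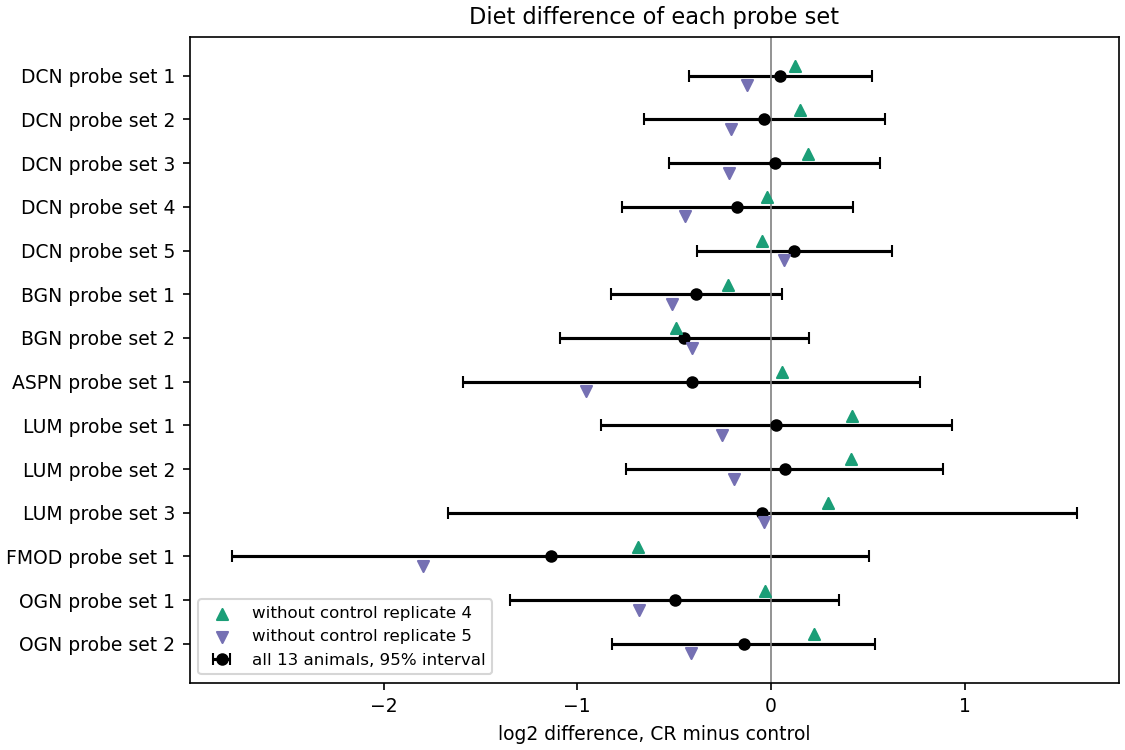
Log2 difference, CR minus control, for each of the 14 probe sets (black, with the 95% interval of limma's moderated fit), with the brightest probe set of each gene first. Triangles give the difference without control replicate 4 (green) or 5 (purple); the 14 intervals include 0, and for FMOD the value moves from -1.14 to -0.69 or -1.80.

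The genes were next compared with each other across animals, after the mean of each diet was removed, using the brightest probe set of each. This co-variation is separate from the diet contrast. Correlations are over 13 animals with a two-sided permutation test within diet (100000 resamples), and each pair shares the same arrays and labelling. The 15 pairs had positive r, from 0.330 to 0.847 with a median of 0.636. Without 2 animals r ran from -0.19 to 0.754 with a median of 0.375, and with a gene's probe sets averaged DCN and BGN had r = -0.18. The closest pair was ASPN and LUM, with Pearson's r = 0.847 (permutation p = 0.00072, adjusted over the 15 pairs 0.0108) and Spearman's rho = 0.852 (permutation p = 0.00079, adjusted 0.0118). Without the 2 animals farthest from the ASPN median, control replicates 4 and 5, r was 0.754, and within the 8 CR animals 0.884.

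LUM was also related to OGN (r = 0.785, adjusted permutation p = 0.0328, with rho = 0.615 at 0.0774) and to BGN (r = 0.755, adjusted permutation p = 0.0328, with rho = 0.582 at 0.0967). In both relations the rank correlation missed the threshold. Without control replicate 5 and CR replicate 8, r was 0.703 for LUM and OGN. Without control replicate 4 and CR replicate 8, r was 0.375 for LUM and BGN. Leaving out control replicate 4 alone gave r = 0.642 for LUM and OGN and 0.623 for LUM and BGN. The adjusted permutation p was then 0.118 for both. In all, 7 of 15 pairs passed by r and 1 by rho. For the members of these 7 pairs, between 0.775% and 8.80% of the other tested genes had an r at least as high. The count of 7 depended on single animals. With CR replicate 8 left out it was 0, and with control replicate 4 or 5 left out it was 1. It was 2 without control replicate 2, control replicate 3 or CR replicate 6, and 3 without CR replicate 2, CR replicate 3 or CR replicate 5.

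The lowest r involved FMOD or DCN. The r of FMOD was 0.351 with OGN, 0.503 with DCN and 0.548 with LUM, and 0.330 linked DCN and BGN, none past the adjusted permutation test. This order changed in part without 2 animals. The r of FMOD was then 0.419 with OGN, 0.326 with DCN and 0.552 with LUM. DCN and BGN had -0.19 and BGN and OGN 0.193. Against all 9812 genes with a tested probe set, LUM ranked 100 among the genes most like ASPN, while LUM ranked 972 among those most like FMOD.

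Neighbouring genes were not the closest pairs. In the RefSeq annotation of assembly T2T-MMU8v2.0, used here for gene order only, LUM and DCN are next to each other, OGN and ASPN are separated by OMD alone, and FMOD lies beside PRELP. The neighbours LUM and DCN had r = 0.708 (adjusted permutation p = 0.0390) and OGN and ASPN r = 0.603 (0.0936 by the same permutation test), both below the r of ASPN and LUM, which lie on different chromosomes.

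**Figure D4:**
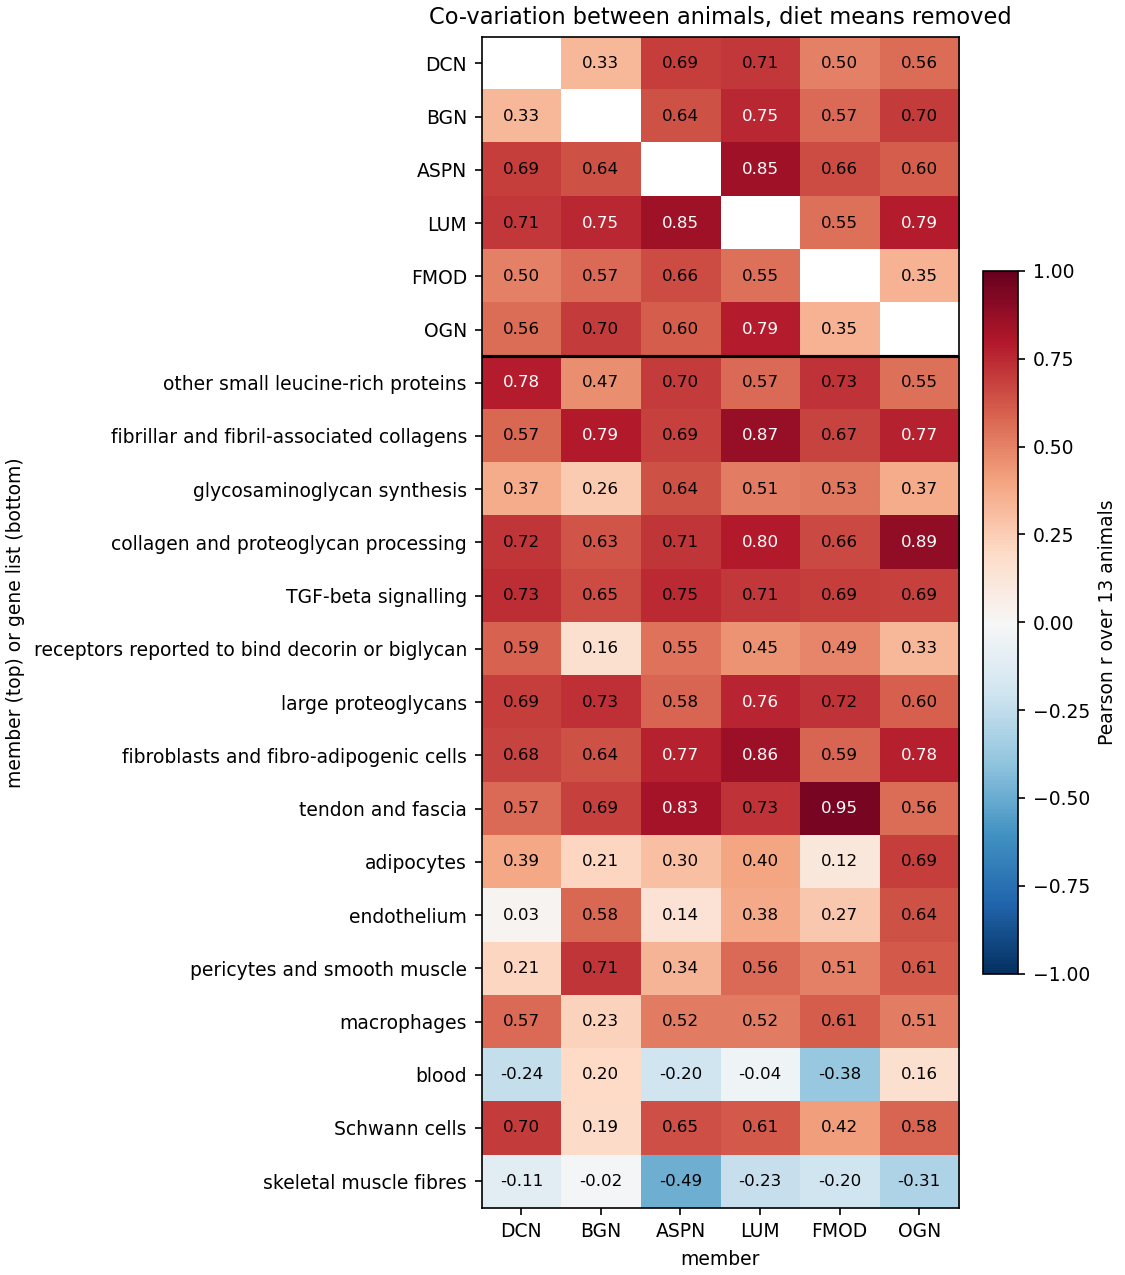
Pearson's r over 13 animals, diet means removed, between the 6 genes (top block) and between each gene and the mean standardised signal of 16 gene lists (bottom block); red is positive and blue negative. The darkest cell is FMOD with the tendon and fascia list at 0.95, while the fibre list has negative r for the 6 genes over all animals but positive r, 0.0864 to 0.618, within the 8 CR animals.

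FMOD tracked genes of tendon. Its r with the tendon and fascia list, 4 measured genes of 6, was 0.947 over 13 animals (permutation p = 2e-05, adjusted over 96 relations of 6 genes with 16 lists 0.00192), with rho = 0.951 (permutation p = 2e-05, adjusted 0.00192). It was 0.930 without 2 animals and 0.953 within CR, and between 0.930 and 0.962 with each animal left out in turn, where it passed each time. The FMOD signals fall into 3 low animals and 10 others, and over those 10 the r was 0.883 (permutation p = 0.00184, n = 10).

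The 4 genes did not take equal parts. Tenomodulin (TNMD), a membrane protein of tendon cells, had r = 0.958 with FMOD (permutation p = 1e-05, the smallest that the resamples can give, and 4e-05 adjusted over the 4 genes), with rho = 0.940. Over the 10 animals without the 3 low ones its r was 0.851. COMP, a pentameric matrix protein of tendon and cartilage, had r = 0.918 (adjusted permutation p = 0.00012) with rho = 0.934, and 0.860 over the 10 animals. CILP, a matrix protein named after cartilage and chosen here after its value was seen, had r = 0.588 (adjusted permutation p = 0.0423) with rho = 0.632, and 0.765 over the 10 animals (adjusted permutation p = 0.0108). THBS4, a matrix thrombospondin, had r = 0.809 (adjusted permutation p = 0.00197) with rho = 0.670, but 0.447 over the 10 animals.

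Control replicate 5, which had the least FMOD of the controls, also had the lowest TNMD and COMP signals of the controls, 182 and 505. Control replicate 4 was highest of all 13 animals for each of the 4 tendon genes, with signals of 4036 for TNMD, 17310 for COMP, 51877 for THBS4 and 28838 for CILP. The list's summed signal ran from 18587 to 102061 in controls and from 10799 to 36196 in CR. Its members had a lower mean in CR in 4 of 4 cases (TNMD -1.06 ± 0.64, COMP -1.01 ± 0.68, SE, log2), beside 50.2% of all tested genes. Their median was -0.93, or -0.51 without control replicate 4, against -0.0016 for all tested genes. None of the 4 passed limma's test. SCX and MKX, the tendon transcription factors, were not measured. The part of tendon or fascia in the diet difference of FMOD was not tested.

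**Figure D5:**
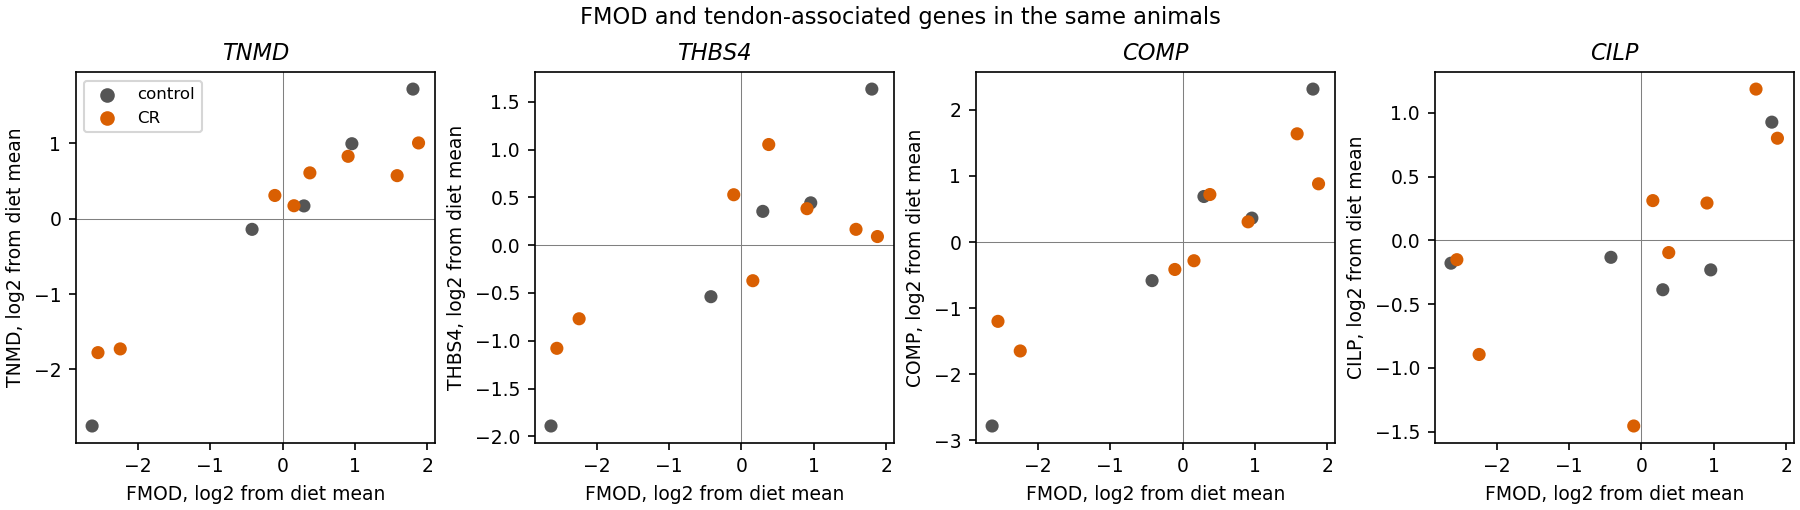
Log2 signal of 4 tendon-associated genes (vertical axes) against FMOD (horizontal axes), each as the distance from the mean of the animal's own diet; 1 point per animal, control grey and CR orange. The points of TNMD and COMP follow FMOD closely (r = 0.958 and 0.918), and 3 animals lie far to the left in each panel.

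The genes most like each member were taken from all 9812, with r over the 13 animals as the measure of likeness and no test, because they were picked as the highest. For FMOD they were TNMD (0.958), CILP2 (0.938) and COMP (0.918). For LUM they were COL14A1 (0.979), a collagen bound to fibril surfaces, GXYLT2 (0.948), a xylosyltransferase, and PPT1 (0.946), a lysosomal thioesterase. ASPN was nearest to CTHRC1 (0.946), a secreted protein with collagen repeats, the small GTPase gene GEM (0.945) and VCAN (0.944), the large proteoglycan versican.

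BGN was nearest to MTCH1 (0.945), a mitochondrial outer membrane protein, CCN5 (0.929), a secreted matricellular protein, and COL6A1 (0.918). OGN was nearest to ANTXR2 (0.958), a receptor that binds matrix proteins, BNC2 (0.950), a zinc finger protein, and LOC699612 (0.946). The genes nearest to DCN were the complement gene C5 (0.940), HNRNPH1 (0.922), which binds RNA, and the kinase gene STK10 (0.897).

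The mean profile of the 6 genes, each standardised, was most like PXYLP1 (0.954), a phosphatase that acts on the xylose of the proteoglycan linker, and VCAN (0.953). ACLY (0.952), CRIP1 (0.952), S100A11 (0.951), TRIP6 (0.942), SLC2A3 (0.942) and JAZF1 (0.938) followed. Control replicate 4 had the highest signal of its group for each of these 8 genes, for instance 7904 for VCAN, where the CR animals lay between 881 and 3741.

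LUM followed the list named fibrillar and fibril-associated collagens, which include ligands of these proteoglycans. The list also holds the collagen VI chains COL6A1, COL6A2 and COL6A3. The relation had r = 0.870 (adjusted permutation p = 0.0168) and rho = 0.769 (adjusted 0.0613). Without 2 animals r was 0.807. Of the 10 measured collagens, COL14A1 was closest (r = 0.979, adjusted permutation p = 0.0002 over the 10, rho = 0.956), and remained at 0.965 within CR. COL1A2, a chain of collagen I, had r = 0.843 with LUM (adjusted permutation p = 0.00375), and COL1A1 0.622 (adjusted permutation p = 0.0578). COL3A1 had r = 0.361 (adjusted permutation p = 0.248), with signals from 262 to 586.

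BGN had r = 0.918 with COL6A1 (adjusted permutation p = 0.0008) and 0.867 with COL6A2 (adjusted permutation p = 0.0045), chains of collagen VI. The third chain, COL6A3, had r = 0.655 (adjusted permutation p = 0.0528). The collagen I chains COL1A2 and COL1A1 had r = 0.760 and 0.690 (adjusted permutation p = 0.021 and 0.0446), so the collagen VI chains lay on both sides of them. COL14A1 had r = 0.815 with BGN (adjusted permutation p = 0.0052). Without 2 animals r was 0.809 for COL6A1, 0.720 for COL6A2 and 0.268 for COL6A3. It was then 0.497 for COL1A2, 0.595 for COL1A1 and 0.562 for COL14A1. The relation of BGN with the whole list had r = 0.790 (adjusted permutation p = 0.0489) and fell to 0.499 without 2 animals.

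In all, 9 of 96 relations with lists passed by r and 3 by rho, the latter for DCN with other small leucine-rich proteins, OGN with processing and FMOD with tendon. LUM passed with the collagens, with fibroblast markers (r = 0.859), with collagen and proteoglycan processing (0.796) and with large proteoglycans (0.763). These lists are not independent. COL1A1, COL1A2 and COL3A1 are in both the collagen and the fibroblast list, and LOX is in both the fibroblast and the processing list. OGN passed with the processing list (0.886), ASPN with the tendon list (0.832) and DCN with the other small leucine-rich proteins (0.785, 0.704 without 2 animals). The count again turned on single animals: leaving out control replicate 4, CR replicate 6 or CR replicate 8 gave 1, control replicate 3 gave 2, control replicate 5 gave 4 and CR replicate 3 gave 5. Leaving out CR replicate 1 gave 17, CR replicate 4 gave 29 and CR replicate 2 gave 6.

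OMD and ECM2, which flank ASPN in the genome, are relatives of the family. Osteomodulin (OMD) ran from 141 to 2491 in controls and from 235 to 1587 in CR at its brightest probe set, and ECM2 from 539 to 5025 and from 425 to 2075. Control replicate 4 was highest for both of these probe sets, but for another OMD probe set it lay at the control median of 229. OMD differed by -0.21 ± 0.63 and ECM2 by -0.70 ± 0.50 (SE, log2). CHAD (chondroadherin) differed by 0.29 ± 0.45 and CHADL by 0.15 ± 0.27. The list's 5 tested members of 11 had a median difference of -0.17, or 0.12 without control replicate 4, and none passed.

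The partners of the family also gave 0 calls. Over all tested genes, 50.2% had a lower mean in CR. Of the collagens, 8 of 10 tested did, with a median of -0.14, which became 0.11 without control replicate 4. COL1A1 differed by -0.35 ± 0.50, COL1A2 by -0.19 ± 0.43 and COL3A1 by -0.056 ± 0.22. Of the enzymes that build the sulfated chains, 10 of 13 were lower, with a median of -0.20 (-0.084 without control replicate 4). The xylosyltransferase genes XYLT1 and XYLT2, which start the chain, differed by -0.48 ± 0.34 and -0.059 ± 0.17, and the xylose kinase gene FAM20B by -0.013 ± 0.17.

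Collagen and proteoglycan processing, 18 of 19 genes measured, had a median of -0.090 (0.15 without control replicate 4). BMP1, a protease that trims procollagen and several of these proteoglycans, differed by -0.27 ± 0.41, its relative TLL1 by -0.53 ± 0.34 and the enhancer PCOLCE by -0.20 ± 0.24. TGF-beta signalling had 9 of 13 genes lower and a median of -0.14 (-0.0019 without control replicate 4). The ligand genes TGFB1 and TGFB3 differed by -0.084 ± 0.38 and -0.44 ± 0.46, and the receptor gene TGFBR1 by 0.040 ± 0.15.

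Receptors reported to bind decorin or biglycan had a median of -0.035 over 4 genes (0.021 without control replicate 4), with EGFR at -0.17 ± 0.51, MET at 0.10 ± 0.17 and IGF1R at 0.18 ± 0.40. Large proteoglycans had a median of -0.37 over 5 genes (-0.15 without control replicate 4), with VCAN at -0.48 ± 0.42, the basement membrane proteoglycan gene HSPG2 at -0.40 ± 0.28 and AGRN at 0.079 ± 0.31.

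Markers of some cell types were highest in control replicate 4, as most of the family was. This held for 7 of 9 fibroblast, 4 of 5 endothelial, 2 of 3 Schwann cell, 1 of 3 pericyte and smooth muscle, 1 of 4 adipocyte, 0 of 5 macrophage and 0 of 2 blood markers. The fibroblast marker MFAP5 was lowest of all 13 animals there. For fibroblasts the list's summed signal was 114761 there, against 40165 to 74178 elsewhere. Endothelial markers summed to 16729 there and to 3888 to 8969 in CR. Fibre genes summed to 221132 in control replicate 4, the lowest of all animals. Adipocyte markers had r from 0.117 with FMOD to 0.693 with OGN over the 6 genes, and endothelial markers from 0.0276 with DCN to 0.638 with OGN. None of these relations passed the adjusted permutation test. The highest sum of adipocyte markers was in CR replicate 2. The part of these cell types in the family's values was not tested. The share of all tested genes that were highest in control replicate 4 is not given here. The counts of markers highest in that animal thus cannot be told apart from a trait of its whole array.

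None of these marker genes passed limma's adjusted test for diet. Only TTN, 1 of 6 fibre genes, and CILP, 1 of 4 tendon genes, had an unadjusted p under 0.05. Over all 9812 tested genes, 179 did. Fibroblast markers had a median log2 difference, CR minus control, of -0.28, which became 0.086 without control replicate 4. Endothelial markers had -0.50 (-0.24 without control replicate 4), with PECAM1 at -0.54 ± 0.32, CDH5, a junction cadherin, at -0.33 ± 0.25 and VWF at -0.50 ± 0.29. Markers of pericytes and smooth muscle had -0.43 (-0.064), with CSPG4 at -0.014 ± 0.33, MYH11 at -0.45 ± 0.64 and TAGLN at -0.43 ± 0.32. The 5 measured endothelial markers and the 3 of pericytes and smooth muscle had lower means in CR, beside 50.2% of all tested genes. Without control replicate 4 TIE1 and CSPG4 changed sign, to 0.14 and 0.12.

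Adipocyte markers had a median of -0.40 (-0.11), with the adipokine gene ADIPOQ at 0.13 ± 0.27, FABP4 at -0.66 ± 0.58 and LEP at -0.87 ± 0.96. Macrophage markers had -0.22 (-0.043), with CD68 at -0.15 ± 0.50, CD14 at -0.22 ± 0.39 and CSF1R at -0.22 ± 0.32. The medians of the blood and Schwann cell lists were -0.19 (-0.020) and -0.057 (-0.053). Fibre genes had -0.067 (-0.21), with CKM at 0.29 ± 0.19, MYH2 at -0.065 ± 0.20 and TTN, the giant sarcomere spring, at -0.70 ± 0.32. In each of these medians the value in brackets leaves out control replicate 4, and no marker was at the floor in any animal.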

How the data were processed

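Trizol-extracted total RNA was turned into biotin-labelled cRNA and read on Affymetrix arrays with 1 colour (per the labels). The deposited values are intensity on a linear scale. MAS5 is the tool that the submitters' processing notes name, with no version. Groups follow the diet in the labels. The table held 52865 probe sets, of which 99 controls were removed. Signals were floored at 1 (137 values) and log2 transformed, and the dimmer 50% by mean log2 signal were left out, which left 26383; the 14 probe sets of the family passed. Names came from the platform annotation: 24956 probe sets had 1 symbol, 361 several and 27449 none listed. Those with several were not named.

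The diet contrast was fitted by limma 3.58.1 (R 4.3.3; lmFit, then eBayes with a trend) as a two-sided test, called at a Benjamini-Hochberg adjusted p under 0.05. Co-variation used numpy 2.4.6 and permutations within diet, after each diet was centred on its mean; a list's profile is the mean of its standardised members. Figures used matplotlib 3.10.9. Both tests were tested on simulated data. Members and lists were chosen with earlier results of these data known. Named genes are all members, the 3 genes most like each and the 8 most like their mean, and up to the first 3 measured genes of each of 16 lists, of which blood and Schwann cells are given by their medians only, and others named in the text were chosen after their values were seen; the relations with lists were added after the data were seen. Alternatives changed the scaling (quantile, or arrays centred on the median), the floor (adding 16 instead), the filter (none, or a share of 0.75 left out), the trend, array weights, RNA quality covariates, a block for the replicate number, averaging of probe sets within a gene and the diet centring, or left out each animal.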

Additional observations from a re-analysis of the deposited data

Results flagged for a closer look

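Over 60 groups of values (14 probe sets and 16 list sums, each in 2 diets), 1 sample lay far from the rest of its group, where chance flags about 1 in 20 groups, or 3. The dimmest LUM probe set (MmugDNA.36365.1.S1_at) had a log2 signal of 3.61 in CR replicate 8, the lowest of its group, and the next lowest CR animal was at 7.48. The brightest LUM probe set was also lowest in that animal.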

How the results depend on the processing

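The count of probe sets past limma's adjusted threshold was 0 under each alternative that kept the 13 animals, and 0 to 1 with each animal left out (1 without control replicate 1 and 1 without control replicate 5). The count at an unadjusted p under 0.05 was 641, and 1783 without the filter, 260 with a share of 0.75 left out and 389 with the replicate block. The median difference of the 6 brightest probe sets was -0.40, between -0.43 and -0.24 with other scaling, offset, weights, RNA quality covariates or averaged probe sets, and -0.60 to 0.013 with each animal left out, positive only without control replicate 4. With the replicate number as a block it was -0.046. The numbers do not pair animals: same-numbered deviations correlated from -0.20 to 0.020, and no control was most like the CR animal of its number. Of 15 pairs, 7 passed; with a gene's probe sets averaged 1 did, and with each animal left out 0 to 8. Of 96 relations with lists, 9 passed; after quantile normalization 24 did, and with each animal left out 1 to 29. The cause was not tested. The relation of FMOD with the tendon list passed in each of these. Dim probe sets limit what can be said of the dimmest DCN, BGN and LUM probe sets.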
